A study of Mus musculus with 6 samples.

Results

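Vascular adhesion molecules were followed gene by gene and probe set by probe set in mouse lung: the selectins Sele and Selp, the immunoglobulin-family receptors Icam1, Icam2, Vcam1 and Pecam1, the cadherin Cdh5, the claudin Cldn5 and the junctional adhesion molecule Jam2. These 9 genes were chosen by name, with earlier results of these data known. Every probe set that the array platform's annotation gives to exactly 1 of these symbols was taken. This made 18 of the 45037 probe sets left after removal of controls. Total RNA came from snap-frozen lung of adult female F1 mice, killed by cervical dislocation under Avertin anaesthesia, and was labelled with biotin and hybridised to Affymetrix arrays. One group of lungs was from the (AKR/J x FVB/NJ) cross (AKR_F1, 3 arrays) and the other from the (DBA/2J x FVB/NJ) cross (DBA_F1, 3 arrays). Both groups carry 1 chromosome set of the inbred strain FVB/NJ, no treatment was given to either, and the question was the basal difference between the genotypes. The labels do not say whether an array stands for 1 animal or for a pool, so the p-values measure the difference against the spread between these arrays, which may be technical.

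A leukocyte or a circulating tumour cell that leaves the blood first tethers and rolls on selectins, then stops when its integrins bind immunoglobulin-family receptors on the endothelium, and finally crosses the junctions between endothelial cells. Sele, Selp, Icam1 and Vcam1 are known as genes that inflammatory cytokines induce, largely through the transcription factor NF-kB. Icam2, Pecam1, Cdh5, Cldn5 and Jam2 are known as constitutive proteins of the endothelial surface and of its junctions. In the lung most endothelium is capillary, and Icam1 is also made by alveolar type 1 cells.

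The tissue label was matched by its markers. On every array surfactant protein C (Sftpc) lay between 14.26 and 14.34 log2, the club cell protein Scgb1a1 between 14.31 and 14.41, the type 1 cell receptor Ager between 13.67 and 13.99, and the endothelial receptor kinase Tek between 10.56 and 11.02. The arrays were not uniform within AKR_F1. The squamous epithelium list (10 tested genes, led by Krt4 and Krt13) averaged 5.32, 5.27 and 9.24 log2 on AKR_F1 replicates 1 to 3, against 8.96, 9.52 and 8.80 on DBA_F1 replicates 1 to 3, and the skeletal muscle list followed it. AKR_F1 replicates 1 and 2 therefore stand apart from the other 4 arrays. Results are therefore given without replicate 3 and with replicate 3 as the only AKR_F1 array. Without replicate 3 the squamous and skeletal muscle lists separate the groups completely, so group and these tissues cannot be told apart in that setting. The adipocyte list (8 tested genes) averaged 7.48, 6.42 and 6.25 log2 in AKR_F1 and 8.94, 9.53 and 8.22 log2 in DBA_F1, so that fat markers separate the groups completely. The part of these tissues in the differences below was not tested beyond the values given.

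All differences below are AKR_F1 minus DBA_F1 on the log2 scale of the deposited signals, with the standard error (SE) of the limma fit over 27022 probe sets. Icam1 and Icam2, receptors for the leukocyte integrin LFA-1, were higher in AKR_F1 lung by 0.32 ± 0.054 and 0.28 ± 0.054, or 1.25-fold and 1.22-fold (adjusted p = 0.0324 and 0.0486). Both calls ended without the mean-variance trend in limma (adjusted p = 0.0681 and 0.0937) and with the replicate number as a block (0.0627 and 0.0926), and that of Icam2 also with median centring (0.0625) or no filter (0.0564). The other tested probe sets of the 9 genes were not called, at the threshold of an adjusted p under 0.05. In bulk lung, fewer cells of a type and less RNA per cell cannot be told apart. Of the 18 probe sets, 14 passed the filter on low signal, a mean over all 6 arrays above 4.72, and these represent 8 of the 9 genes. The 2 calls among 14 stand beside 2.62% of all tested probe sets called in either direction and 1.57% called with higher signal in AKR_F1. Every AKR_F1 array lay above every DBA_F1 array for 9 of the 14, in 5 genes, against 14.6% of all tested probe sets. The AKR_F1 mean was higher for 14 of the 14 and for 57.4% of all tested probe sets, but the sign turned for some members under other settings. It was higher for 10 of the 14, and for 12.1% of all tested probe sets, after the endothelial marker mean of each array was subtracted, which lowers all genes alike. With the squamous mean as a covariate it was higher for 13 of the 14 and for 51.7% of all tested probe sets. Counted by gene, each at its brightest probe set, 2 of 8 were called and 5 of 8 did not overlap, against 2.48% called in either direction and 14.2% without overlap among all 13202 tested genes. Probe sets of 1 gene read the same transcript and do not count as separate evidence.

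**Figure D1:**
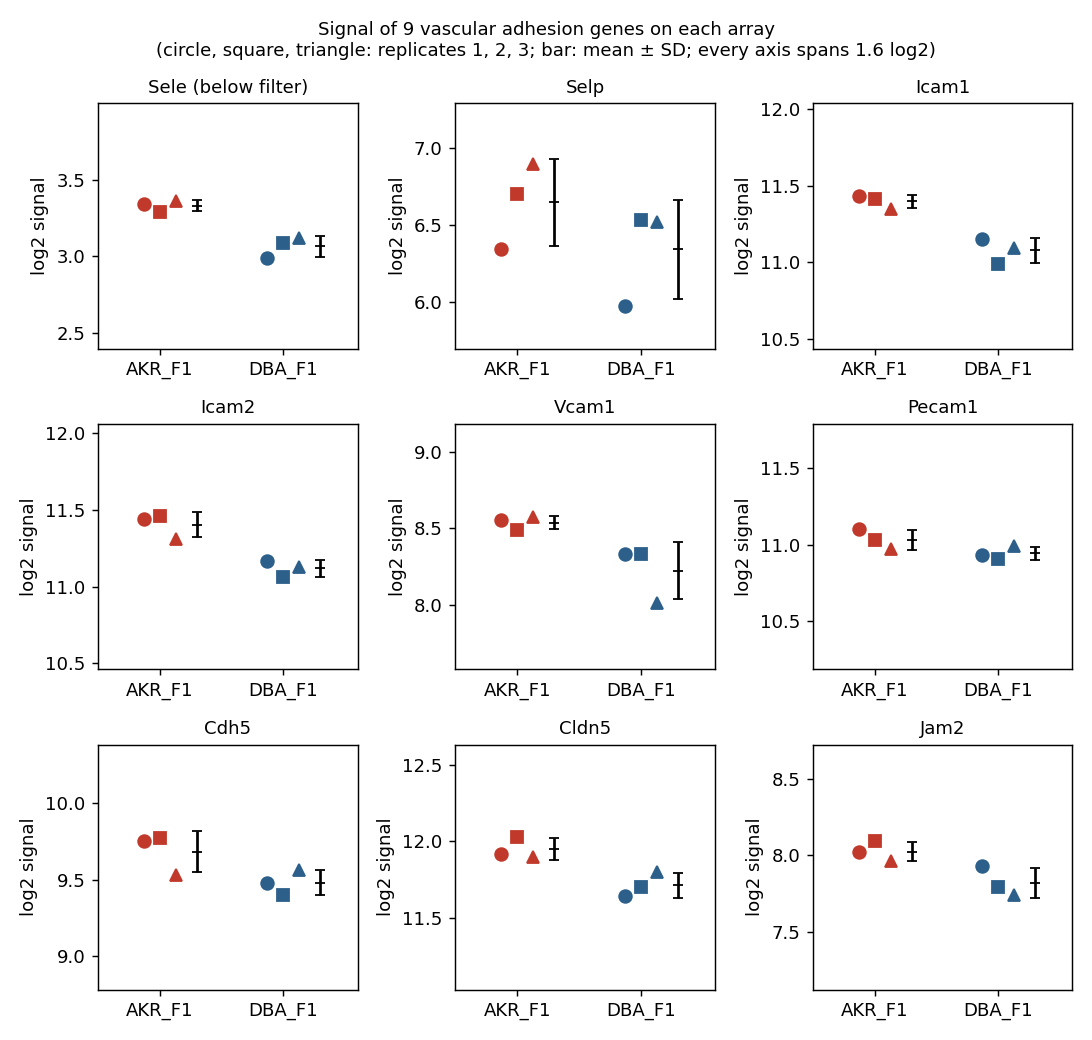
Log2 signal of each of the 9 genes on the 6 arrays, AKR_F1 at the left and DBA_F1 at the right of each panel, with circles, squares and triangles for replicates 1, 2 and 3 and a bar for the mean ± SD. Each panel shows the brightest tested probe set (Sele its only one, below the filter) on an axis of its own, and Icam1, Icam2, Vcam1, Cldn5, Jam2 and Sele have no overlap between the groups.

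Sele encodes E-selectin, which endothelium displays after cytokine exposure. Its only probe set gave 3.34, 3.29 and 3.36 log2 in AKR_F1 and 2.99, 3.09 and 3.12 log2 in DBA_F1. The AKR_F1 arrays were all above the DBA_F1 arrays, by 0.26 between the means. None of the 6 values reached 4.72, and with no test made the difference is a value only.

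Selp encodes P-selectin, which is stored in the granules of platelets and endothelial cells. Its tested probe set gave 6.34, 6.70 and 6.90 log2 in AKR_F1, against 5.97, 6.53 and 6.52 log2 in DBA_F1. AKR_F1 replicates 2 and 3 were above every DBA_F1 array and replicate 1 was within their range. The difference was 0.30 ± 0.19 (95% interval -0.16 to 0.76, adjusted p = 0.457), the widest interval of any of the 14 tested probe sets. Single arrays moved it widely: it was 0.12 without DBA_F1 replicate 1, 0.18 without AKR_F1 replicate 3, 0.45 without AKR_F1 replicate 1 and 0.55 for AKR_F1 replicate 3 alone, and it was not called in any of these.

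The other 2 probe sets of Selp lay below the filter level on average and had the opposite sign. The brighter of them gave 4.06, 4.55 and 4.54 log2 in AKR_F1 and 4.41, 4.86 and 4.75 log2 in DBA_F1, a difference of -0.29. For the dimmer the means were 2.61 in AKR_F1 and 2.72 in DBA_F1. The tested probe set and the brighter untested one had their lowest value in each group on replicate 1. The platelet and megakaryocyte list (8 tested genes) also had its lowest means in each group there, with 7.54, 8.15 and 7.67 log2 on AKR_F1 replicates 1 to 3 and 7.68, 7.97 and 8.15 log2 on DBA_F1 replicates 1 to 3, and its part in the Selp values was not tested.

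Icam1 (CD54) binds the leukocyte integrins LFA-1 and Mac-1 and arrests rolling cells. Its probe set gave 11.43, 11.41 and 11.35 log2 in AKR_F1 lung, against 11.15, 10.99 and 11.09 log2 in DBA_F1 lung. The groups did not overlap, and the gap between them was wider than the range within either group of Icam1 values. Icam1 averaged 11.40 ± 0.043 in AKR_F1 and 11.08 ± 0.084 in DBA_F1 (SD, n = 3 each), and the 95% interval of its difference ran from 0.19 to 0.45. Dropping AKR_F1 replicate 3 kept the call (adjusted p = 0.0316), as did dropping DBA_F1 replicate 1 (0.0375). It was lost without AKR_F1 replicate 1 or 2 or DBA_F1 replicate 2 or 3, where the adjusted p ran up to 0.144 and the difference lay between 0.27 and 0.33. With replicate 3 as the only AKR_F1 array the difference was 0.27 (adjusted p = 0.447).

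Icam2 (CD102) is a constitutive LFA-1 receptor of endothelium and platelets. Its probe set gave 11.44, 11.46 and 11.31 log2 in AKR_F1 lung, against 11.17, 11.06 and 11.13 log2 in DBA_F1 lung. The groups did not overlap, and AKR_F1 replicate 3, the AKR_F1 array that shares squamous transcripts with all DBA_F1 arrays, was nearest to DBA_F1. Icam2 averaged 11.40 ± 0.080 in AKR_F1 and 11.12 ± 0.053 in DBA_F1 (SD, n = 3 each), with a 95% interval of 0.15 to 0.41 for the difference. The call lay close to the threshold. It was kept without AKR_F1 replicate 3 (0.33, adjusted p = 0.0198) and lost without any other array, with a highest adjusted p of 0.194. Against DBA_F1, AKR_F1 replicate 3 alone differed by 0.19 (adjusted p = 0.547).

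Vcam1 (CD106) binds the integrin VLA-4 of lymphocytes, monocytes and eosinophils, and stromal cells make it as well as endothelium. Its brightest probe set gave 8.55, 8.49 and 8.57 log2 in AKR_F1 and 8.33, 8.33 and 8.01 log2 in DBA_F1. The AKR_F1 arrays lay within 0.1 of each other and above every DBA_F1 array, and DBA_F1 replicate 3 was the lowest. The SD was 0.043 in AKR_F1 and 0.19 in DBA_F1, n = 3 each. The difference of 0.31 ± 0.094 was as large as that of Icam1 but was not called (95% interval 0.089 to 0.53, adjusted p = 0.151). The other tested probe sets of Vcam1 differed by 0.30 (adjusted p = 0.173) and 0.23 (adjusted p = 0.203), also without overlap between the groups. Its difference was 0.35 with AKR_F1 replicate 3 alone and 0.29 without that array. Without DBA_F1 replicate 3 it was 0.20.

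The promoters of the inducible genes are shown because Icam1 is the member with the lowest adjusted p and Sele, a classic cytokine-induced gene, lay below the filter level on every array. RefSeq promoters of the GRCm38.p6 build were matched for 4 of the 9 genes, as windows of 250 bases before and 50 bases after the start site, and 3 are printed here, all on the plus strand. They are the C57BL/6J reference, not the AKR/J, DBA/2J or FVB/NJ alleles. Icam1 is at chr9:21015690-21015989, Sele at chr1:164047984-164048283 and Selp at chr1:164115014-164115313. Capitals mark matches, on either strand, to GGNNNTTCC (the core shared by many NF-kB sites), TATAAA or TGANTCA (AP-1 type).
Icam1: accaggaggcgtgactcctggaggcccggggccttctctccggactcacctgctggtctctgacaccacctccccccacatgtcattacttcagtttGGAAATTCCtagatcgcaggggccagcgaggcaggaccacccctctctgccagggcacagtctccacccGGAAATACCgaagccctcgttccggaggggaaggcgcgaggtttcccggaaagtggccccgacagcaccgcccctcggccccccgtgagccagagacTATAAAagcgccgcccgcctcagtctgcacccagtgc
Sele: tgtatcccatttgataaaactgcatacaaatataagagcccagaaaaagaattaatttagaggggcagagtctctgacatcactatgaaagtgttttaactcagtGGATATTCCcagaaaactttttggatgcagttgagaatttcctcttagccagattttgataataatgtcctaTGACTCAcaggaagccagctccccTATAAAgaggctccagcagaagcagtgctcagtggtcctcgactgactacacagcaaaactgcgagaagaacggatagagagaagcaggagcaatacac
Selp: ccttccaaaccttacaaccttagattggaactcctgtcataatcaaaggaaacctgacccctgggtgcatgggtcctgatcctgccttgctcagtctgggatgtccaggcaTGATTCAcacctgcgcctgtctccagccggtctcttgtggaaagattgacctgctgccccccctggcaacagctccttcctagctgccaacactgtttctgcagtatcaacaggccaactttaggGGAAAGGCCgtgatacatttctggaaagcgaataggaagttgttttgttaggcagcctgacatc

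The Icam1 window held GGAAATTCC, which matches the NF-kB type pattern on both strands, 153 bases before the start site, and a second match on the opposite strand 84 bases before it. Its TATAAA match lay after the annotated start site, from base 14 on. The Sele window held 1 such match 145 bases before the start site, an AP-1 type match 73 bases before it and TATAAA 49 bases before it. In the Selp window the NF-kB type match lay 14 bases before the start site, on the opposite strand, and an AP-1 type match 139 bases before it. Of all 32851 promoter windows, 18.5% hold the NF-kB type pattern, 13.6% TATAAA and 7.8% the AP-1 type pattern. The Cldn5 window, the fourth that was matched, held none of the 3 patterns. The Icam1 window was 64.7% G or C, the Cldn5 window 58.3%, the Selp window 51.7% and the Sele window 41.7%, with a median of 52.7% over all windows. A match in these letters is not evidence of a bound site.

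Pecam1 (CD31) joins neighbouring endothelial cells and is also carried by platelets and many leukocytes. Its probe set gave 11.10, 11.03 and 10.97 log2 in AKR_F1 and 10.93, 10.91 and 10.99 log2 in DBA_F1. The groups overlapped at AKR_F1 replicate 3 and DBA_F1 replicate 3. The difference of 0.09 ± 0.048 was the smallest among the 14 tested probe sets, and its 95% interval of -0.024 to 0.20 excludes a difference as large as the 0.32 of Icam1 (adjusted p = 0.371). It was 0.12 without AKR_F1 replicate 3, 0.03 for that array alone and 0.06 without AKR_F1 replicate 1.

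Cdh5 (VE-cadherin) is the adhesive protein of endothelial adherens junctions and a defining marker of endothelium. Its brighter probe set gave 9.75, 9.77 and 9.53 log2 in AKR_F1 and 9.48, 9.40 and 9.56 log2 in DBA_F1. AKR_F1 replicates 1 and 2 were above every DBA_F1 array and AKR_F1 replicate 3 was within their range. The difference was 0.20 ± 0.079 (95% interval 0.018 to 0.39, adjusted p = 0.234). It was 0.28 without AKR_F1 replicate 3 and 0.05 with that array alone. The dimmer probe set differed by 0.19 ± 0.13 (adjusted p = 0.474), and by -0.07 with AKR_F1 replicate 3 alone.

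Cldn5, the main claudin of endothelial tight junctions, gave 11.92, 12.03 and 11.90 log2 in AKR_F1 and 11.64, 11.70 and 11.80 log2 in DBA_F1. The groups did not overlap. The difference of 0.23 ± 0.057 had the lowest adjusted p among the members that were not called (0.0946, 95% interval 0.10 to 0.37). It was 0.26 without AKR_F1 replicate 3 and 0.19 for that array alone.

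Jam2 (JAM-B), a junctional receptor for VLA-4 and JAM-C, had 5 probe sets, of which 4 were tested. The brightest gave 8.02, 8.09 and 7.96 log2 in AKR_F1 and 7.93, 7.79 and 7.74 log2 in DBA_F1. The groups were separated by a narrow gap of AKR_F1 replicate 3 over DBA_F1 replicate 1. Its difference was 0.21 ± 0.070 (adjusted p = 0.192), with 0.24 without AKR_F1 replicate 3 and 0.14 for that array alone, and those of the other tested Jam2 probe sets lay between 0.15 and 0.21, with adjusted p from 0.248 to 0.325. The fifth was below the filter level on every array, with 4.07, 3.91 and 4.02 log2 in AKR_F1 and 4.01, 3.93 and 4.17 log2 in DBA_F1.

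**Figure D2:**
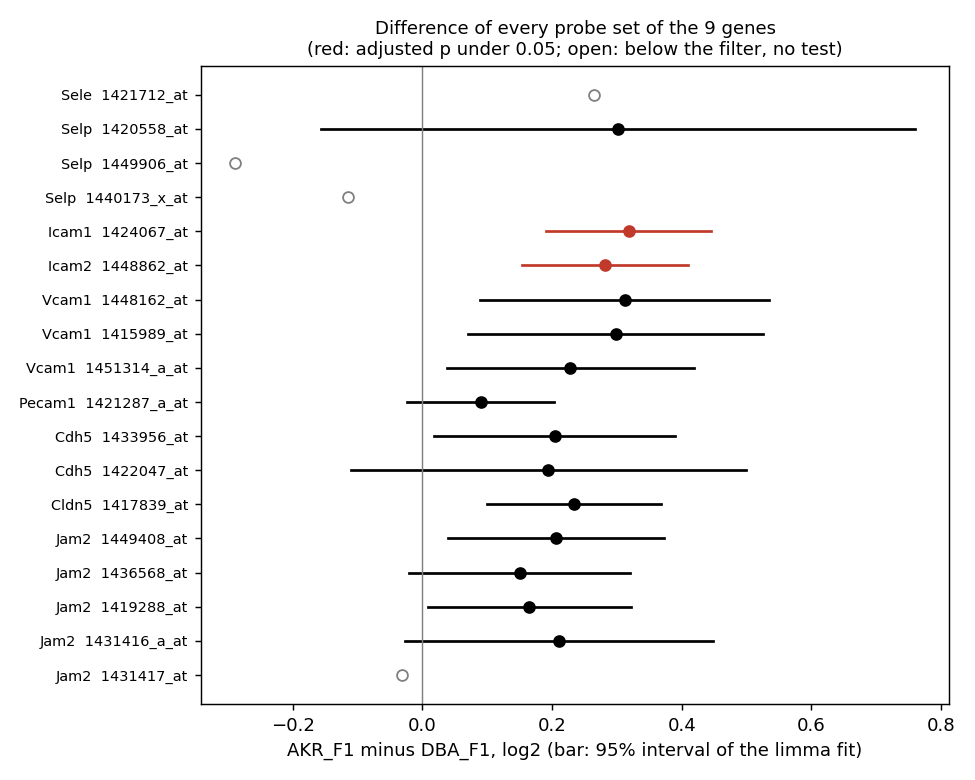
AKR_F1 minus DBA_F1 difference (log2) of all 18 probe sets, with 95% intervals of the limma fit for the 14 tested, red where the adjusted p was under 0.05, and open points for those below the filter. Icam1 and Icam2 have intervals that start at 0.19 and 0.15, Selp has the widest interval, and its 2 untested probe sets lie on the negative side.

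None of the named genes next to the called members was called. On chromosome 9 the coding genes after Icam1 are Icam4 and Icam5, adhesion receptors of red cells and neurons, which differed by -0.02 and -0.04 (adjusted p = 0.937 and 0.795), and Mrpl4 before it differed by -0.12 (adjusted p = 0.295). Icam2 and Pecam1 are near each other on chromosome 11, with Ern1 and Tex2 as the only coding genes between them in the RefSeq table of GRCm38.p6, and these 2 differed by -0.04 and 0.06. These neighbours were chosen by position.

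Most endothelial markers had differences of the same sign as the members. Of 19 other endothelial identity genes, 15 had a higher mean in AKR_F1 and 4 in DBA_F1, and 1 was called. For 7 of the 19 every AKR_F1 array lay above every DBA_F1 array, against 14.2% of all tested genes, and for 0 the reverse. At an unadjusted limma p under 0.05, 7 were higher in AKR_F1 and 0 in DBA_F1, against 1413 and 1110 of all 13202 tested genes. The median difference of the 19 was 0.14, against 0.26 over the 8 tested members and 0.02 over all tested genes. Fli1, an ETS transcription factor of endothelium and blood, was called (0.74 ± 0.080, adjusted p = 0.00684), although its other probe set differed by 0.11 (adjusted p = 0.513). A dimmer probe set of Ets1, another ETS factor, was also called (0.43 ± 0.078, adjusted p = 0.0415). Its brightest probe set differed by 0.26 (adjusted p = 0.144), and the others by 0.409 and 0.305 (adjusted p = 0.0823 and 0.107), without a call. Such dimmer probe sets were named after their values were seen. The VEGF receptor Kdr differed by 0.39 (adjusted p = 0.0586), the angiopoietin receptor Tek by 0.28 (adjusted p = 0.0856) and its relative Tie1 by 0.11 (adjusted p = 0.538). The list averaged 10.15, 10.16 and 9.94 log2 on AKR_F1 replicates 1 to 3, against 9.89, 9.80 and 9.97 log2 on DBA_F1 replicates 1 to 3. AKR_F1 replicate 3 was thus below DBA_F1 replicate 3 in this list. The 8 tested members averaged 9.82, 9.87 and 9.81 log2 in AKR_F1, on replicates 1 to 3, and 9.58, 9.59 and 9.61 log2 in DBA_F1. Of these 8, 6 had their lowest AKR_F1 value on replicate 3, where Selp and Vcam1 had their highest. Without Selp the means were 10.31, 10.33 and 10.23 log2 in AKR_F1 and 10.09, 10.03 and 10.05 log2 in DBA_F1.

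**Figure D3:**
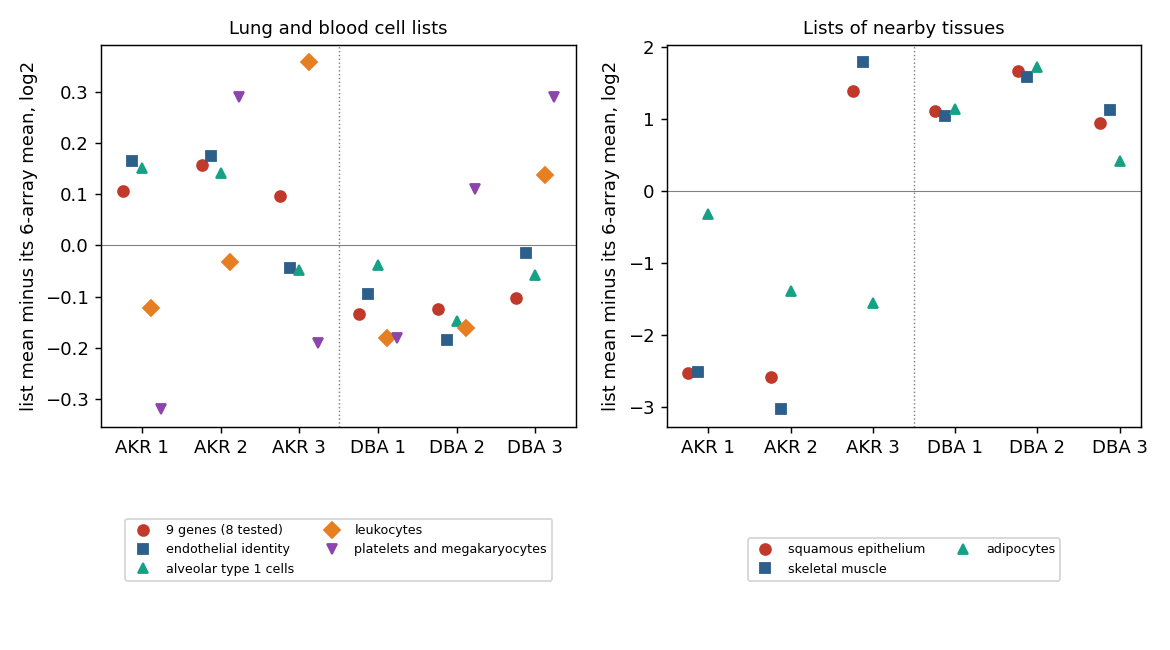
Mean log2 signal of each gene list on each array, minus that list's mean over the 6 arrays, with AKR_F1 arrays at the left of the dotted line and DBA_F1 arrays at the right. On AKR_F1 replicate 3 the endothelial list falls to 9.94, within the DBA_F1 range, and the member mean is 9.81, and squamous and muscle lists separate AKR_F1 replicates 1 and 2 from all other arrays.

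With the endothelial identity mean of each array subtracted from all its values, the differences of the members were smaller. This scaling lowers all genes alike, and the median of all tested genes was then -0.18. Icam1 then differed by 0.12 (95% interval -0.07 to 0.31, adjusted p = 0.331), Icam2 by 0.08 (-0.09 to 0.26, adjusted p = 0.458), Vcam1 by 0.11 and Selp by 0.10. Cdh5 and Jam2 differed by 0.01 each and Cldn5 by 0.04. Pecam1 turned to -0.11 (95% interval -0.29 to 0.08). Under this setting no member was called in either direction. The subtracted list itself had a mean difference of 0.20 and carries its own spread between arrays. A lost call here therefore does not place the members relative to endothelial cells, which was not tested. With the squamous mean as a covariate, Icam1 differed by 0.26 (adjusted p = 0.202), Icam2 by 0.19 (adjusted p = 0.264) and Cdh5 by 0.05 (adjusted p = 0.868), a fit that rests largely on AKR_F1 replicate 3.

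**Figure D4:**
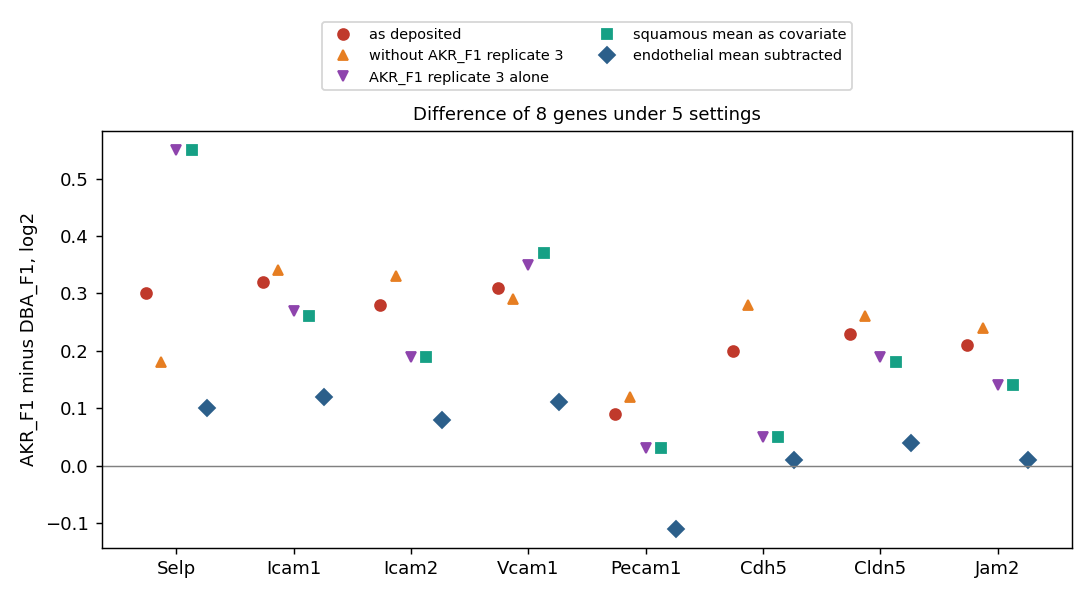
AKR_F1 minus DBA_F1 difference (log2) of the 8 tested genes at their brightest probe set, under 5 settings. Cdh5 moves between 0.01 and 0.28, Icam1 and Vcam1 stay at 0.11 or above, and Pecam1 is below 0 after subtraction of the endothelial mean.

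Other adhesion genes of the vessel wall were measured on the same arrays. Of 20 tested, limma called none at the brightest probe set and 5 had an unadjusted p under 0.05. Of the same 20, 12 had a higher mean in AKR_F1, and the median difference of the 20 was 0.07. Among all 13202 tested genes, 1413 were higher in AKR_F1 at an unadjusted limma p under 0.05 and 1110 were higher in DBA_F1. Every count at an unadjusted p given here and below stands beside that background. A dimmer probe set of the sialomucin Podxl was called, with 8.12, 8.08 and 7.90 log2 in AKR_F1 and 7.45, 7.26 and 6.97 log2 in DBA_F1 (0.81 ± 0.13, adjusted p = 0.0264), and its brightest differed by 0.27 (adjusted p = 0.200). Mcam (CD146), an endothelial and smooth muscle adhesion receptor, differed by 0.38 (adjusted p = 0.105). Glycam1, a secreted mucin-like glycoprotein, had 3.99, 3.55 and 7.58 log2 in AKR_F1 and 3.53, 9.70 and 8.21 log2 in DBA_F1, a difference of -2.11 with an adjusted p of 0.563. Its high and low arrays did not follow the groups. The 8 partners of VE-cadherin had differences from 0.05 to 0.19, and limma called none at the brightest probe set (1 at an unadjusted p under 0.05). The largest were those of the small GTPase Rap1b (0.19, adjusted p = 0.107; its other probe set was called, 0.27 ± 0.041, adjusted p = 0.0245) and its effector Arhgap29 (0.14, adjusted p = 0.457). The catenins Ctnna1, Ctnnb1 and Ctnnd1 differed by 0.13, 0.08 and 0.09.

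Ligands on leukocytes were measured in the same lungs. Of 13 tested leukocyte and platelet ligand genes limma called none (3 at an unadjusted p under 0.05) and 12 had a higher mean in AKR_F1, with a median difference of 0.17. The hyaluronan receptor and selectin ligand Cd44 differed by 0.40 (adjusted p = 0.0858) at its brightest probe set. Its other tested probe sets differed by 0.095 (adjusted p = 0.545) and 0.31 (adjusted p = 0.291), both with overlap between the groups. Itgal, the alpha chain of LFA-1 and so the partner of Icam1 and Icam2, had 9.57, 9.62 and 9.94 log2 in AKR_F1 and 9.48, 9.34 and 9.42 log2 in DBA_F1 (0.30 ± 0.10, adjusted p = 0.191). Its groups did not overlap. The shared beta chain Itgb2 differed by 0.17 (adjusted p = 0.416), the Mac-1 alpha chain Itgam by 0.26 (adjusted p = 0.617), and the VLA-4 chains Itga4 and Itgb1, partners of Vcam1, by 0.23 and 0.16 (adjusted p = 0.306 and 0.288). The other tested probe sets differed by 0.254 to 0.515 for Itga4 and by 0.018 to 0.072 for Itgb1, and none was called. The P-selectin ligand Selplg differed by 0.10 (adjusted p = 0.739). These partners, apart from Cd44 and Itgal, and the catenins and cytokine genes were chosen for their known pairing after the values were seen.

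Cytokine and NF-kB genes, not all of them inducers of the members, gave no called difference. In the list of cytokines, their receptors and NF-kB components, limma called 0 of 15 tested genes (4 at an unadjusted p under 0.05) and 13 had a higher mean in AKR_F1, with a median difference of 0.12. The membrane-bound chemokine Cx3cl1, itself an adhesion molecule of endothelium, differed by 0.34 (adjusted p = 0.147) without overlap, and the NF-kB feedback inhibitor Tnfaip3 by 0.32 (adjusted p = 0.727). Tnfaip3 varied more within groups than between them, with 7.93, 8.42 and 9.47 log2 in AKR_F1 and 7.80, 8.31 and 8.76 log2 in DBA_F1. The cytokine genes Tnf and Il1a, the only 2 of the 15 with lower means in AKR_F1, differed by -0.08 and -0.21 (adjusted p = 0.654 and 0.575), and Il1b differed by 0.11 (adjusted p = 0.890). At the brightest probe set 5 of the 15 had every AKR_F1 array above every DBA_F1 array, against 14.2% of all tested genes. These were Cx3cl1, Tnfrsf1b, Il4ra, Nfkb2 and Il1r1.

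**Figure D5:**
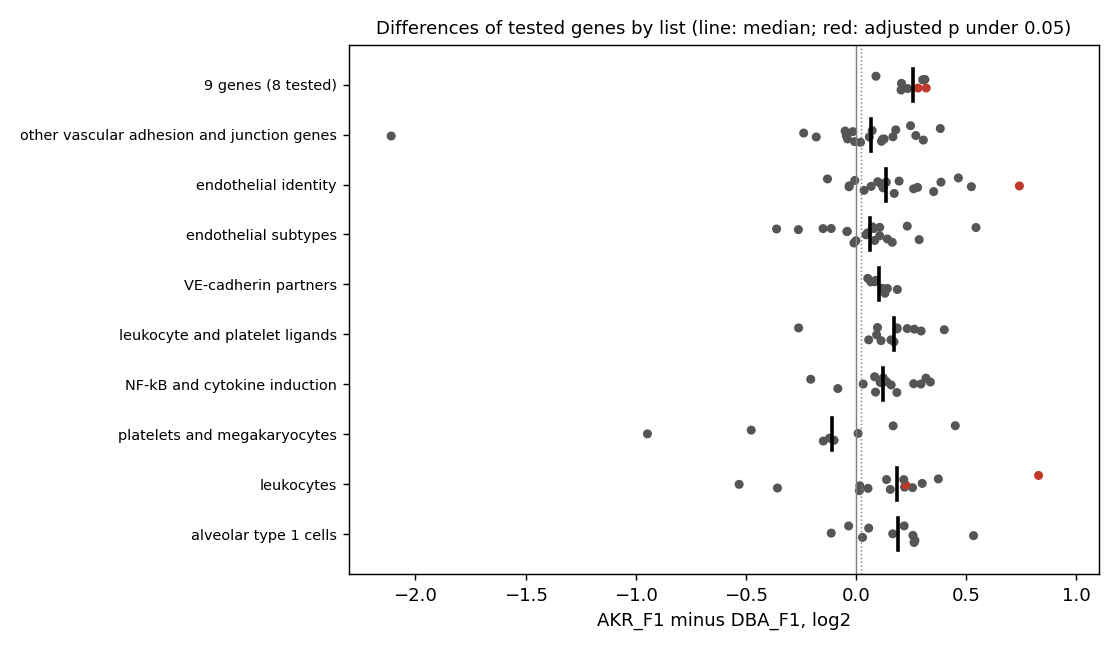
AKR_F1 minus DBA_F1 difference (log2) of each tested gene by list, with a black line at the list median, a dotted line at the median of all tested genes (0.02) and red for an adjusted p under 0.05. The tested members lie between 0.09 and 0.32 around a median of 0.26, and the platelet list has a median of -0.11. Glycam1 is the point at -2.11.

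Other cells that make these molecules were examined by their own markers. Alveolar type 1 cells, a source of Icam1, had a list median of 0.19 over 10 tested genes, none called by limma (6 at an unadjusted p under 0.05), with Igfbp2 at 0.53 (adjusted p = 0.0732), the water channel Aqp5 at 0.27 (adjusted p = 0.204) and Ager at 0.17 (adjusted p = 0.182). Their list averaged 11.68, 11.67 and 11.48 log2 in AKR_F1 and 11.49, 11.38 and 11.47 log2 in DBA_F1, and the groups overlapped. Of 14 tested leukocyte markers 2 were called, the sialic acid receptor Siglecf of alveolar macrophages and eosinophils (0.83 ± 0.12, adjusted p = 0.0182) and the macrophage growth factor receptor Csf1r (0.22 ± 0.042, adjusted p = 0.0439). The pan-leukocyte phosphatase Ptprc differed by 0.22 (adjusted p = 0.363). The leukocyte list averaged 8.59, 8.68 and 9.07 log2 in AKR_F1 and 8.53, 8.55 and 8.85 log2 in DBA_F1, with replicate 3 the highest in each group. The part of leukocytes and type 1 cells in the Icam1 difference was not tested.

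Platelets carry Selp, Pecam1 and Icam2. Limma called none of 8 platelet and megakaryocyte genes (1 at an unadjusted p under 0.05), and they had a median difference of -0.11. Their part in the members' differences was not tested. The defining markers Pf4 and Itga2b differed by 0.45 and -0.10 (adjusted p = 0.285 and 0.806), the platelet chemokine Ppbp by -0.95 (adjusted p = 0.0668) and the von Willebrand factor receptor subunit Gp1bb by -0.48 (adjusted p = 0.338). Stromal cells can make Vcam1, and 11 of 12 mesenchymal, pericyte and smooth muscle genes had lower means in AKR_F1, with a median of -0.26 and none called at the brightest probe set (6 at an unadjusted p under 0.05). A dimmer probe set of the fibroblast receptor Pdgfra was called higher in AKR_F1 (0.49 ± 0.066, adjusted p = 0.0145), and its brightest differed by -0.01. The part of stromal cells in the Vcam1 difference was not tested. The pericyte gene Rgs5 differed by -1.07 (adjusted p = 0.146) and the intermediate filament gene Des by -0.55 (adjusted p = 0.186). Mesothelial markers had a median of -0.01 over 5 tested genes, with Wt1 at -0.13, Upk1b at -0.08, Msln at 0.04 and Upk3b at -0.01, and limma called 0 of them (0 at an unadjusted p under 0.05).

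Among the profiles most like a member over the 6 arrays, compared after each gene was centred and divided by its own SD, Cdh5 had Slc5a10, Cecr2, Ttl and Fam162b as its nearest 4 genes, with root mean square differences of 0.057 to 0.11 SD. Ttl, an enzyme that adds tyrosine to tubulin, had 7.47, 7.47 and 7.26 log2 in AKR_F1 and 7.22, 7.11 and 7.27 log2 in DBA_F1. Vcam1 had Gm20346, the interferon-induced GTPase Mx2, Commd10 and Fam120a as its nearest 4, at 0.12 to 0.15 SD. None of the 8 was called. Over 6 arrays and 13202 genes such likeness is a description only.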

How the data were processed

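The deposited values are log2 signals, 1 per probe set and array, and were used as deposited. Per the submitters' processing notes, MAS5 and RMA were used, with no versions and without saying which made the table, so the scale was read from the values: array medians lay between 5.46 and 5.49 and genes were not centred. Gene symbols came from the platform annotation, updated by gene ID through RefSeq (GRCm38.p6): 34945 probe sets had 1 symbol, 932 several and 9160 none, and 34741 of the first kind were matched. After 64 control probe sets were removed, probe sets in the lowest 40% by mean (4.72 or less) were not tested. Group differences came from linear models in R 4.3.3 with limma 3.58.1 (two-sided, eBayes with a mean-variance trend, group as the only term), with Benjamini-Hochberg adjustment over 27022 probe sets and a call at an adjusted p under 0.05. The fit was tested on simulated data. A gene is represented by its tested probe set with the highest mean. Intervals are 95% and unadjusted. With 3 arrays per group their number limits the precision, and no detection calls were used.

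Members and gene lists were chosen with earlier results of these data known, so lists are described by counts and medians, with no set test. The rule for named genes took every probe set of the members and, from each list, every called gene if 4 or fewer and otherwise the 4 with the largest difference, or the 2 largest where none was called, beside defining markers; exceptions are stated. Probe sets of different genes are not compared in level. Over all tested probe sets, deviations from the group mean correlated at 0.311 (replicates 1), -0.228 (replicates 2) and -0.0497 (replicates 3) between same-numbered arrays, so the numbers were not treated as pairs. Single genes can differ from this, as Tnfaip3 rose from replicate 1 to replicate 3 in both groups. The alternatives were other normalizations, filters, variance models, array weights, a replicate block, covariates, other summaries of a gene's probe sets, and leaving out each array.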

Additional observations from a re-analysis of the deposited data

How the results depend on the processing

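Of all 27022 tested probe sets 707 were called, and of the members' probe sets 2, Icam1 and Icam2. The calls are few enough in margin that most changes end them. The member count stayed at 2 with quantile normalization, a 60% filter, robust eBayes and array weights. It was 1 (Icam1) with median centring and with no filter, and 0 with eBayes without a trend, the replicate block, the squamous covariate, the adipocyte covariate (added after seeing the data), the endothelial mean subtracted and AKR_F1 replicate 3 alone. With 1 array left out it ran from 0 to 2. Icam1 was called under 10 of 20 alternatives and Icam2 under 6 of 20, and both kept their sign in all 20. These counts overstate the number of separate checks. Each of these genes has 1 probe set, so its most variable probe set repeats the main result. Changes of filter or variance model, the replicate block and the mean per gene left both differences unchanged, so the sign was fixed there. Icam1, called at 0.32, was not called at 0.32 without a trend (adjusted p = 0.0681) or with the replicate block (0.0627), at 0.26 with the squamous and 0.29 with the adipocyte covariate, at 0.12 with the endothelial mean subtracted, or at 0.27 for AKR_F1 replicate 3 alone, and ran from 0.27 to 0.36 with 1 array left out. Icam2, called at 0.28, was not called at 0.28 without a trend (0.0937), with the replicate block (0.0926), with median centring (0.0625), with no filter (0.0564) or by the mean per gene (0.064), at 0.19 with the squamous and 0.30 with the adipocyte covariate, at 0.08 with the endothelial mean subtracted, or at 0.19 for AKR_F1 replicate 3 alone, and ran from 0.25 to 0.33 with 1 array left out. For Icam2, with 1 probe set, the mean per gene is the same 6 values, and only the fit and adjustment over genes differed. No member other than Icam1 and Icam2 was called under any alternative run. With the endothelial mean subtracted the sign turned for Pecam1 (-0.11), both Jam2 probe sets next in brightness to the main one (-0.03 and -0.05) and the dimmer Cdh5 probe set (0.00, just below 0). That Cdh5 probe set also turned with the squamous covariate (-0.06) and for AKR_F1 replicate 3 alone (-0.07), and Selp turned with the adipocyte covariate (-0.18). The count of all called probe sets was 1198 with array weights, 256 with the squamous covariate, 85 for AKR_F1 replicate 3 alone and 9 with the adipocyte covariate, which separates the groups completely. It ran from 198 to 1171 with 1 array left out, the highest without AKR_F1 replicate 3. Endothelial scaling gave 116 higher in AKR_F1 and 519 higher in DBA_F1, against 424 and 283 in the values as deposited, and without DBA_F1 replicate 3 the split was 284 and 429. The causes of these changes were not tested. The replicate block changed no other member's call. The mean per gene gave no value for Selp, and 1 Jam2 probe set was not tested under the 60% filter.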

Other observations

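Endothelial subtypes did not share a direction. Of 20 tested genes that mark capillary, venous, arterial or lymphatic endothelium 12 had a higher mean in AKR_F1 and 8 in DBA_F1, and limma called none (3 higher and 1 lower in AKR_F1 at an unadjusted p under 0.05). The arterial connexin Gja5 had the largest positive difference, with 5.33, 5.67 and 5.37 log2 in AKR_F1 and 5.09, 4.94 and 4.72 log2 in DBA_F1 (0.54 ± 0.13, limma adjusted p = 0.0942). Ackr1, the atypical chemokine receptor of venules, had the largest negative one, with 5.75, 5.73 and 5.96 log2 in AKR_F1 and 6.06, 6.38 and 6.07 log2 in DBA_F1 (-0.36 ± 0.11, adjusted p = 0.164). Venules are where Sele and Selp are known to act. The venous and platelet protein Vwf differed by 0.08 (adjusted p = 0.646) and the lymphatic receptor Lyve1 by -0.26 (adjusted p = 0.623).

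Enzymes that build the sugars bound by selectins were close to even between the groups. Of 6 tested genes limma called 0 (0 at an unadjusted p under 0.05), with a median difference of 0.05. The fucosyltransferase Fut4 differed by 0.19 (adjusted p = 0.430) and the sialyltransferase St3gal6 by 0.15 (adjusted p = 0.277).

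The remaining cell type lists gave these values. Of 7 tested type 2 cell genes, 7 had a higher mean in AKR_F1, 5 of them without overlap and 5 at an unadjusted limma p under 0.05. Limma called 3, the surfactant lipid enzyme Lpcat1 (0.41 ± 0.078, limma adjusted p = 0.0452), the protease Napsa (0.34 ± 0.064, adjusted p = 0.0437) and surfactant protein B, Sftpb (0.32 ± 0.057, adjusted p = 0.0371). Of 8 tested adipocyte genes, 8 had a lower mean in AKR_F1, all without overlap, and 5 were called. The 4 called genes with the largest differences were Pck1 (-3.58, adjusted p = 0.0233), Fabp4 (-1.87, adjusted p = 0.0451), Adipoq (-1.85, adjusted p = 0.0289) and Cidec (-1.71, adjusted p = 0.016). In the squamous, skeletal muscle, cardiac muscle, and club and ciliated cell lists limma called 0 genes. At an unadjusted p under 0.05, 6 of 10 squamous genes, 1 of 7 skeletal muscle genes, 3 of 6 club and ciliated cell genes and 0 of 7 cardiac genes were lower in AKR_F1. Krt13 differed by -5.76 (adjusted p = 0.230) and Krt4 by -5.24 (adjusted p = 0.237), Myh1 by -4.28 (adjusted p = 0.274) and Acta1 by -3.76 (adjusted p = 0.279). The atrial hormone gene Nppa differed by -1.67 (adjusted p = 0.515) and Sln by -0.50 (adjusted p = 0.435). The cilia regulator Foxj1 differed by -0.23 (adjusted p = 0.213) and Dynlrb2 by -0.20 (adjusted p = 0.354).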
